A study of Rattus norvegicus with 36 samples.

Results

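The transcripts described here encode acute phase, complement and coagulation proteins, 49 listed genes whose products hepatocytes secrete into plasma. Of these, 43 were measured by a probe set annotated to 1 gene, out of 14217 genes measured in that way. Where a gene had more than 1 probe set, the brightest on average was used. C2, Cfb and Kng1 were represented only by probe sets annotated to several genes and were left out, and F7, F11 and F13b were not analysed here. The labels name the tissue as liver, and 11 of 13 listed hepatocyte markers were measured; Alb (mean log2 value 14.7), Ttr (14.3) and Apoc3 (14.2) were among them.

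The samples came from male Sprague Dawley rats that were 7 weeks old when dosing began. HCDBCO (hexachlorocyclopentadienyl-dibromocyclooctane), a halogenated flame retardant, was given by gavage in corn oil (5 ml per kg body weight) on 5 days, and liver was taken 1 day after the last dose. There were 36 samples in 6 groups of 6, which received only corn oil (vehicle) or HCDBCO each day, at the low doses of 0.05 and 0.54 mg/kg, the middle dose of 5.41 mg/kg, or the high doses of 54.1 and 541 mg/kg. The labels number replicates but do not identify animals, so p-values reflect only the variation among the samples deposited, and no batch is named. Values are log2 signals, so that a difference of 1 is a doubling, and a call is an adjusted p under 0.05 over all 31042 probe sets tested.

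Acute phase proteins are plasma proteins whose hepatic synthesis is altered by inflammation. Interleukin-6, acting through the receptor subunit encoded by Il6st and the transcription factor STAT3, together with interleukin-1 and factors of the C/EBP family, drives the positive ones, while albumin is a negative one. In rats alpha-2-macroglobulin (A2m) and alpha-1-acid glycoprotein (Orm1) are strongly inducible, whereas C-reactive protein (Crp) is abundant in plasma without inflammation. Complement proteins opsonise and lyse microbes, and the coagulation cascade converts fibrinogen to fibrin under the control of circulating inhibitors.

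The promoter windows of the 3 fibrinogen genes and of Serpinf2, Plg and C3 are shown because the transcripts of each set varied together between samples. They are RefSeq sequences of assembly GRCr8, from 250 bases before to 50 bases after the annotated start, in the direction of transcription. Capitals mark matches on either strand to 3 motifs: TTCNNNGAA, a STAT motif; TTNNGNAA, a C/EBP motif, which reads TTNCNNAA on the other strand; and GTTAAT, part of the HNF1 motif, which reads ATTAAC on the other strand.
Fga (chr2:170671919-170672218, + strand): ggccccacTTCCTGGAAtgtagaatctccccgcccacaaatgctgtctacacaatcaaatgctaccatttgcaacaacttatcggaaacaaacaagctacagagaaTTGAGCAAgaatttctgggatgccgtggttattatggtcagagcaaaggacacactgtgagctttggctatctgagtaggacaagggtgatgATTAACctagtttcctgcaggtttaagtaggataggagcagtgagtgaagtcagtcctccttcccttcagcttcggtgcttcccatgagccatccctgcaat
Fgb (chr2:170700826-170701125, - strand): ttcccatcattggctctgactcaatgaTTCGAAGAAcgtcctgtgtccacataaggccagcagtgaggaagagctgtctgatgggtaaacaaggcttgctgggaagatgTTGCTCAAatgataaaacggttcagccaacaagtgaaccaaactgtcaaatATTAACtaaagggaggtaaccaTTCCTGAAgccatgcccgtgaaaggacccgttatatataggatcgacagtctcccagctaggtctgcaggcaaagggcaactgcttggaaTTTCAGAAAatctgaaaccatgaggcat
Fgg (chr2:170652833-170653132, + strand): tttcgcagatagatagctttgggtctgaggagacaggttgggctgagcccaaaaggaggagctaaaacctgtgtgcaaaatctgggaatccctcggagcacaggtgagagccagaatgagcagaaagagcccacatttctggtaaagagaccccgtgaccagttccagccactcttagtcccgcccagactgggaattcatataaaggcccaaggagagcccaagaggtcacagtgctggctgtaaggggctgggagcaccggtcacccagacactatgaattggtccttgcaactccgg
Serpinf2 (chr10:60778733-60779032, - strand): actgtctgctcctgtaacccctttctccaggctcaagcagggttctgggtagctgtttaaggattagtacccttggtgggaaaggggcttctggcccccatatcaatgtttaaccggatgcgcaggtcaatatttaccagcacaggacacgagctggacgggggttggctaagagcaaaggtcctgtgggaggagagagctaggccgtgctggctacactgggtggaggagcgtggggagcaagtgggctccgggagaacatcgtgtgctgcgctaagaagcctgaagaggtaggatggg
Plg (chr1:50915357-50915656, - strand): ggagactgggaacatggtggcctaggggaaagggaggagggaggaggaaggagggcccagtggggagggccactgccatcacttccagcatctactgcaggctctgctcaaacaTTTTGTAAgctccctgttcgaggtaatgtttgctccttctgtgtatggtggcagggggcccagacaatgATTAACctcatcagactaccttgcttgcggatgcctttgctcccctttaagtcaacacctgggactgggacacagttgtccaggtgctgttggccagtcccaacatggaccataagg
C3 (chr9:2201290-2201589, - strand): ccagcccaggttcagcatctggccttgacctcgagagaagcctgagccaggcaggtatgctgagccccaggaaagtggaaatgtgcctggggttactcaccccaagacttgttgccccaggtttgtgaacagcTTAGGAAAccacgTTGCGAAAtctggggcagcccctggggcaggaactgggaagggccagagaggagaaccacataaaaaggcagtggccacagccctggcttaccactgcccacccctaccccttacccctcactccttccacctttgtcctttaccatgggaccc

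The 3 fibrinogen windows lie on chromosome 2, and those of Fga and Fgb each held 1 STAT, at least 1 C/EBP and 1 HNF1 match. In Fga the STAT match was TTCCTGGAA and in Fgb it was TTCGAAGAA. Neither the Fgg nor the Serpinf2 window held any of the 3 motifs, the Plg window held 1 C/EBP match and 1 HNF1 match, and that of C3 held 2 C/EBP matches. Of all 33469 windows of 300 bases, 8.87% held the STAT motif, 41.3% the C/EBP motif and 7.45% the HNF1 letters. A window was found for 35 of the 43 measured genes. Of these 35, the STAT motif was held by 7 (Fga, Fgb, C4bpb, Pros1, F9, Itih4 and Vtn), the C/EBP motif by 25 and the HNF1 letters by 10. These are matches of letters and not measured binding sites.

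No acute phase, complement or coagulation transcript passed the test at any dose. In the 541 mg/kg group 0 of 43 were called (limma; 0.155% of all probe sets were), with 16 higher and 27 lower than in vehicle and a median log2 difference of -0.025, against 0.0076 over all probe sets. At this dose 3 of 43 (6.98%) had an unadjusted p under 0.05, against 9.07% of all probe sets: Pros1 was higher, and C4bpb and Fga were lower. At 54.1 mg/kg 0 of 43 were called (0.0741% of all probe sets), with 18 higher and 25 lower, a median of -0.011 and none with an unadjusted p under 0.05 (9.2% of all probe sets).

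The 3 lower doses gave no call in any of the 43, nor in any other probe set (0% of all probe sets at each). At 0.05, 0.54 and 5.41 mg/kg, 27, 15 and 13 of the 43 had higher means than vehicle, with medians of 0.0066, -0.0079 and -0.023. None had an unadjusted p under 0.05, against 3.02%, 4.18% and 4.83% of all probe sets at those doses. The 5 comparisons share the same vehicle samples.

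The differences from vehicle were bounded within 1.5-fold for most of these transcripts, as for most probe sets on the array. In 40 of 43, the 95% interval of the difference from vehicle lay within 1.5-fold in both directions at all 5 doses. The other 3 were A2m, Lcn2 and C6. At 541 mg/kg 41 of 43 intervals lay within 1.5-fold, against 30140 of all 31042 probe sets, so this bound does not set these transcripts apart. Of the 43 intervals at 541 mg/kg, 31 lay within 0.2 of 0 on the log2 scale, against 10389 of all 31042 probe sets.

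**Figure D1:**
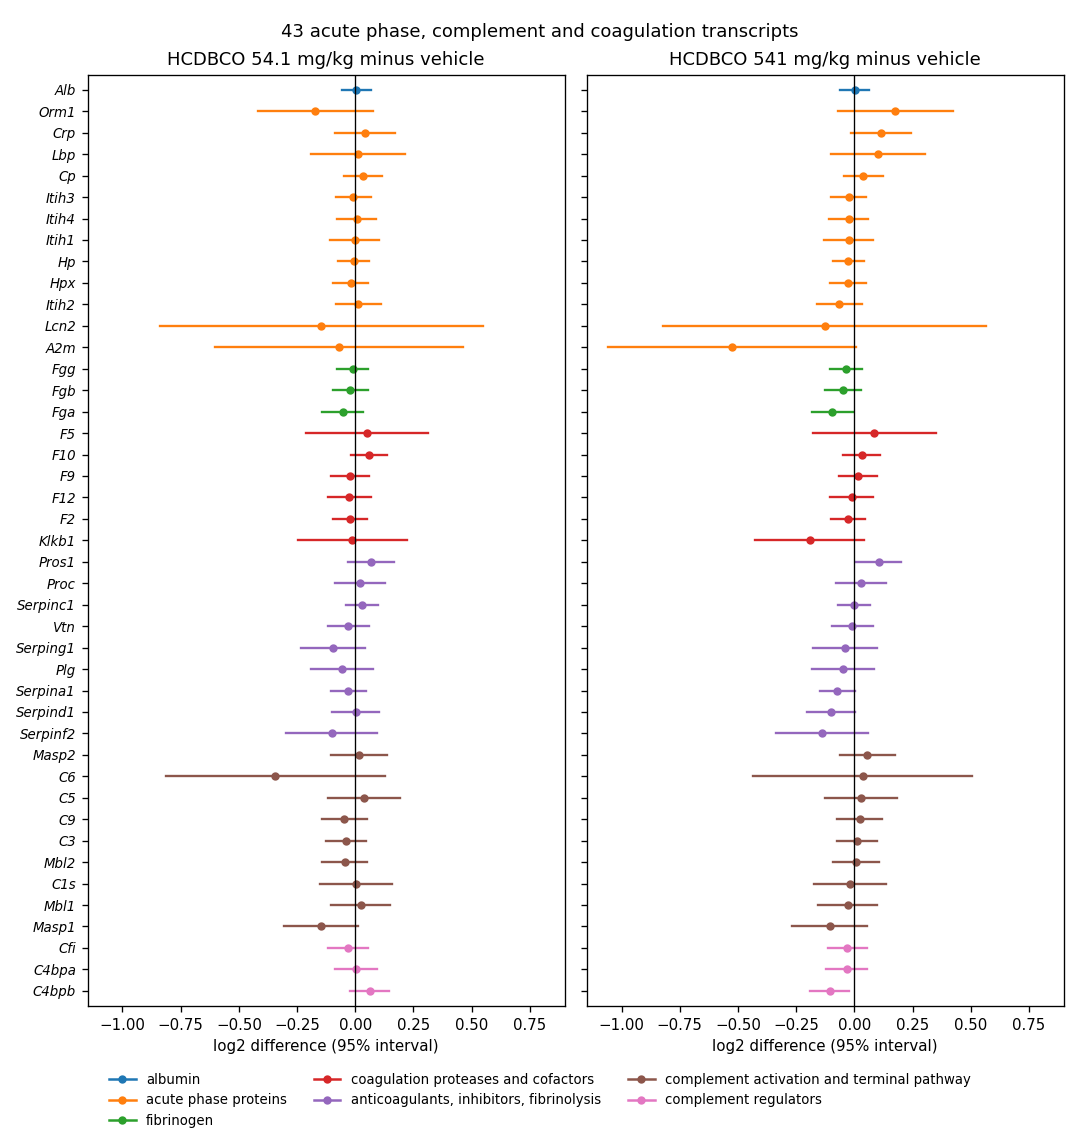
Log2 difference from vehicle (points, with 95% intervals as lines) of the 43 measured transcripts at 54.1 mg/kg (left) and 541 mg/kg (right), ordered and coloured by role. At 541 mg/kg most intervals are narrow and cross 0, those of A2m, Lcn2 and C6 are the widest, those of C4bpb and Fga lie below 0, and that of Pros1 lies above it.

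Among the 12 acute phase proteins, 4 had higher and 8 lower means at 541 mg/kg than in vehicle, from -0.53 to 0.18, and none was called. A2m, whose product traps proteases in plasma, had log2 values of 8.33, 8.61 and 9.03 (lowest, median and highest of 6) at 541 mg/kg, against 8.70, 9.01 and 9.92 in vehicle. All 6 samples at 541 mg/kg lay below the vehicle mean, and the groups overlapped. The difference was -0.53 ± 0.26 (95% interval -1.06 to 0.0052), 0.694-fold, with adjusted p = 0.556. Here and for every difference given, ± is limma's standard error and the adjusted p is limma's.

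Along the doses, A2m was not ordered. Its mean was 9.17 ± 0.49 in vehicle (SD, n = 6 in each group), 9.20 ± 0.36 at 0.05, 8.92 ± 0.79 at 0.54, 9.31 ± 0.52 at 5.41, 9.10 ± 0.34 at 54.1 and 8.64 ± 0.25 at 541 mg/kg. The lowest value of the 36, 7.45, was that of replicate 6 at 0.54 mg/kg.

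Orm1 lay on opposite sides of vehicle at the 2 highest doses. Its values were 12.41, 12.70 and 12.84 (lowest, median, highest) at 541 mg/kg, against 12.08, 12.56 and 12.79 in vehicle, a difference of 0.18 ± 0.12 (95% interval -0.07 to 0.42; adjusted p = 0.710). At 54.1 mg/kg they were 12.18, 12.32 and 12.49, a difference from vehicle of -0.17 ± 0.12 (adjusted p = 0.710). The vehicle samples spanned nearly all of both ranges, and neither difference was called.

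Lcn2, lipocalin-2, a binder of bacterial siderophores, varied most between samples of 1 group. Its values were 5.22, 5.55 and 6.50 at 541 mg/kg, against 5.21, 5.83 and 6.76 in vehicle, and the groups overlapped almost completely. The difference was -0.13 ± 0.34 at 541 mg/kg (95% interval -0.82 to 0.57; adjusted p = 0.949) and -0.15 ± 0.34 at 54.1 mg/kg (-0.84 to 0.55). Its intervals reached 1.5-fold at every dose. Lcn2 is also a granule gene of neutrophils; 7 of 9 listed neutrophil markers were measured, with a mean log2 value of 4.01 to 4.26 at 541 mg/kg, against 3.91 to 4.25 in vehicle, and none was called. Replicate 4 at 0.54 mg/kg, which had the highest Lcn2 value, 7.71, stood apart in markers of several cell types. Its mean over 5 of 6 listed bile duct markers was 6.89, against a median of 5.30 in its group and 5.17 to 5.69 in the other 5 groups. Of the 36 samples it also had the highest mean of the neutrophil markers, 4.49, and of 10 stellate cell markers, 7.56, and of its group the highest of 9 Kupffer cell and macrophage markers, 8.76. Replicate 1 at 5.41 mg/kg, with Lcn2 at 7.17, had the highest Kupffer cell and macrophage mean of the 36, 9.22. Replicate 6 at 0.05 mg/kg had a mean of 9.15 for these markers and Lcn2 at 5.73. In the vehicle, 0.05 and 5.41 mg/kg groups, the sample highest in the neutrophil markers had the lowest Lcn2 value of its group. These were replicates 1, 2 and 6, with Lcn2 at 5.21, 4.53 and 5.27. At 54.1 and 541 mg/kg replicate 2 was highest in the neutrophil markers, with Lcn2 at 5.72 and 6.41. The neutrophil means lay below the median signal of every array (5.06 to 5.17), so the ranking of samples by these dim markers is uncertain. The part of these cells in the Lcn2 values was not tested.

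Crp had values of 12.68, 12.78 and 12.98 at 541 mg/kg, against 12.50, 12.72 and 12.80 in vehicle. The difference was 0.11 ± 0.06 (95% interval -0.014 to 0.24; adjusted p = 0.607), with 4 of 6 samples above the vehicle mean. Set against the 3 lower doses, the 54.1 and 541 mg/kg groups together were 0.14 ± 0.04 higher (unadjusted p = 0.00175, limma adjusted p = 0.191). That was the smallest adjusted p of the 43 in this comparison, and it did not pass.

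The other acute phase proteins stayed near vehicle. Hp, haptoglobin, which binds free haemoglobin, had values of 14.05, 14.09 and 14.11 at 541 mg/kg, against 14.09, 14.11 and 14.14 in vehicle, a difference of -0.026 ± 0.033 (95% interval -0.093 to 0.041; adjusted p = 0.875). Hpx, hemopexin, which binds haem, was at -0.029, Cp, the copper protein ceruloplasmin, at 0.039 and Lbp, which binds bacterial lipopolysaccharide, at 0.10. Itih1, Itih2, Itih3 and Itih4, of the inter-alpha-trypsin inhibitor heavy chain family, were between -0.064 and -0.024.

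Alb, albumin, had values of 14.70, 14.71 and 14.72 at 541 mg/kg, against 14.70, 14.71 and 14.73 in vehicle. The difference was 0.0020 ± 0.031 (95% interval -0.060 to 0.064). Its probe set gave the highest signal of the array on 36 of 36 arrays, within 14.69 to 14.74, which is the top of the table's range. Whether a change in such a signal could be seen at the top of the scale was not tested.

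**Figure D2:**
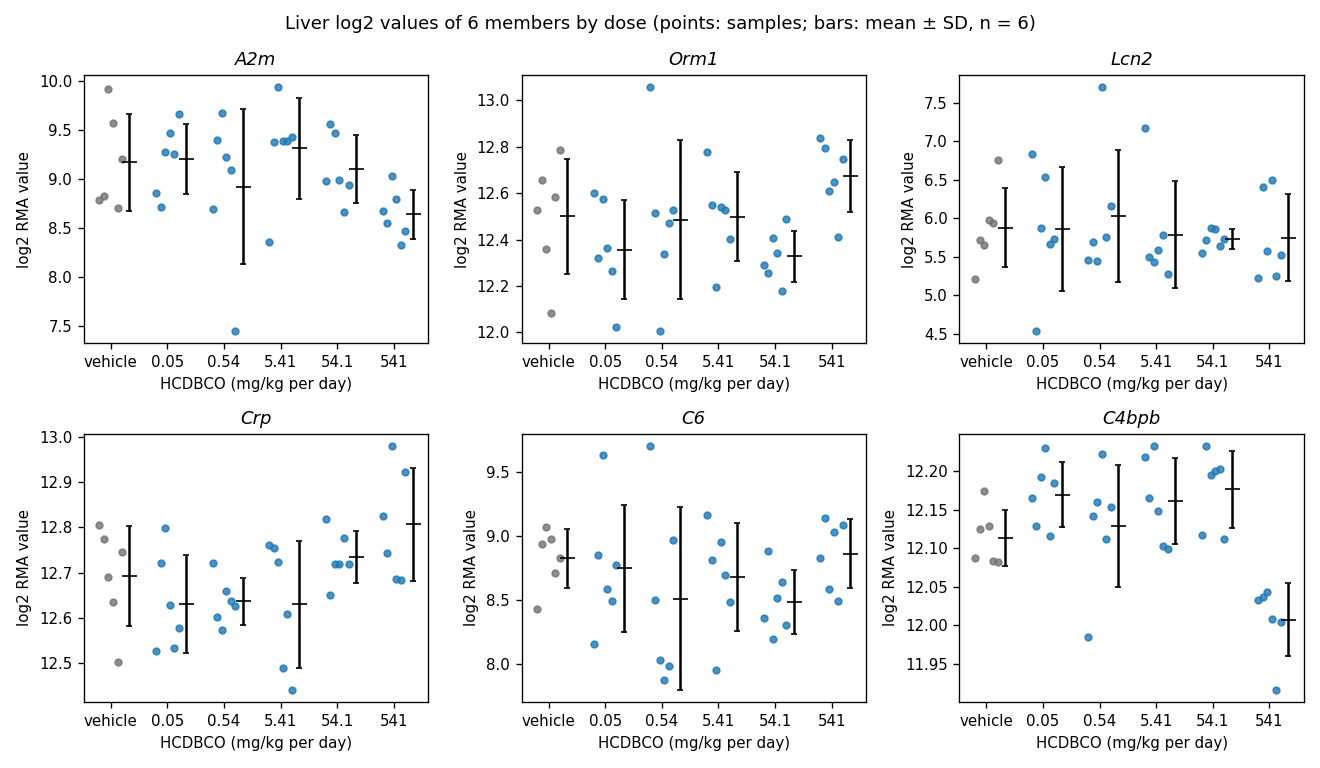
Log2 RMA values (vertical axes, each with its own range) of A2m, Orm1, Lcn2, Crp, C6 and C4bpb by daily dose from vehicle (grey) to 541 mg/kg (blue); points are single samples, bars the mean ± SD of 6. The 541 mg/kg points of C4bpb lie below all vehicle points, while in the other 5 panels the groups overlap.

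All 3 fibrinogen chains had lower means at both high doses, and none was called. Fga, the alpha chain, had values of 13.77, 13.86 and 13.94 at 541 mg/kg, against 13.92, 13.96 and 13.99 in vehicle. Its difference was -0.094 ± 0.042 (95% interval -0.18 to -0.0079; unadjusted p = 0.0333, limma adjusted p = 0.486), and 0 of 6 samples lay above the vehicle mean. A dimmer probe set of Fga was at -0.085 (adjusted p = 0.759).

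Fgb, the beta chain, had values of 13.78, 13.85 and 13.97 at 541 mg/kg, against 13.86, 13.91 and 13.96 in vehicle, a difference of -0.050 ± 0.038 (95% interval -0.13 to 0.027; adjusted p = 0.743). Fgg, the gamma chain, was at -0.035 ± 0.033 (adjusted p = 0.811). The groups overlapped for each chain, and at 54.1 mg/kg the 3 differences were between -0.055 and -0.011.

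Of the 6 measured proteases and cofactors of coagulation, 3 were higher and 3 lower at 541 mg/kg. Klkb1, plasma prekallikrein of the contact system, had values of 11.27, 11.56 and 11.83, against 11.54, 11.63 and 12.15 in vehicle, a difference of -0.19 ± 0.12 (95% interval -0.43 to 0.042; adjusted p = 0.648). It was at -0.013 at 54.1 mg/kg. F2, prothrombin, was at -0.028, F9 at 0.014, F10 at 0.031, F12 at -0.011 and F5, a cofactor that varied more between samples, at 0.086 ± 0.13, all at 541 mg/kg and none called.

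Among the 9 anticoagulants, protease inhibitors and proteins of fibrinolysis, 2 were higher and 7 lower at 541 mg/kg. Pros1, protein S, the cofactor of activated protein C, had values of 10.90, 10.94 and 11.05 at 541 mg/kg, against 10.80, 10.85 and 10.93 in vehicle. All 6 samples lay above the vehicle mean, the difference was 0.10 ± 0.048 (95% interval 0.0066 to 0.20; unadjusted p = 0.0371, limma adjusted p = 0.5002), and the groups overlapped. Pros1 at 54.1 mg/kg was at 0.068 ± 0.048 (adjusted p = 0.706).

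Serpind1, heparin cofactor II, an inhibitor of thrombin, had values of 12.53, 12.60 and 12.69 at 541 mg/kg, against 12.60, 12.69 and 12.79 in vehicle, a difference of -0.10 ± 0.050 (95% interval -0.20 to 0.0013; adjusted p = 0.557). None of the 6 lay above the vehicle mean, and at 54.1 mg/kg the difference was 0.0020. Serpina1, alpha-1-antitrypsin, was at -0.074 ± 0.037 (adjusted p = 0.556). Serpinc1, antithrombin, was at -0.0013 and Proc, protein C, at 0.029.

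Serpinf2, alpha-2-antiplasmin, had values of 11.03, 11.30 and 11.42 at 541 mg/kg, against 11.12, 11.42 and 11.64 in vehicle, a difference of -0.14 ± 0.097 (95% interval -0.34 to 0.057; adjusted p = 0.708). Plg, plasminogen, which that inhibitor controls once activated, was at -0.048 ± 0.065. Serping1, C1 inhibitor, had values of 12.08, 12.15 and 12.27 at 54.1 mg/kg, against 12.07, 12.27 and 12.46 in vehicle, a difference of -0.096 ± 0.067 (adjusted p = 0.707), and was at -0.041 at 541 mg/kg. These groups overlapped.

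In complement, the 9 measured components of activation and the terminal pathway were 6 higher and 3 lower at 541 mg/kg, from -0.11 to 0.056, and 4 higher and 5 lower at 54.1 mg/kg. C6, of the membrane attack complex, had values of 8.19, 8.44 and 8.89 at 54.1 mg/kg, against 8.43, 8.89 and 9.08 in vehicle, a difference of -0.34 ± 0.23 (95% interval -0.81 to 0.13; adjusted p = 0.688). It was at 0.036 ± 0.23 at 541 mg/kg, where its values were 8.49, 8.93 and 9.14. Of the 36 values the highest and the lowest, 9.71 and 7.88, both came from the 0.54 mg/kg group.

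Masp1, a serine protease of the lectin pathway, had values of 9.22, 9.35 and 9.53 at 54.1 mg/kg, against 9.37, 9.48 and 9.69 in vehicle. The difference was -0.15 ± 0.079 (95% interval -0.31 to 0.013; adjusted p = 0.586, the smallest of the 43 at this dose), with 1 of 6 above the vehicle mean. Its difference at 541 mg/kg was -0.11 ± 0.079. The mannose-binding lectins Mbl1 and Mbl2, which recognise microbial sugars, were at -0.029 and 0.0076 at 541 mg/kg, and C3, the central component, was at 0.010 ± 0.042.

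C4bpb, the beta chain of C4b-binding protein, was the one transcript of the 43 whose 541 mg/kg and vehicle samples did not overlap, against 0.744% of all probe sets. Its values were 11.92, 12.02 and 12.04 at 541 mg/kg, against 12.08, 12.11 and 12.17 in vehicle. The difference was small, -0.11 ± 0.041 (95% interval -0.19 to -0.022; unadjusted p = 0.0150), and it did not pass (limma adjusted p = 0.386, the smallest of the 43 at this dose). At 54.1 mg/kg none of the 43 was free of overlap with vehicle (0.596% of all probe sets).

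At every lower dose the mean of C4bpb was above that of vehicle, by 0.056, 0.016, 0.048 and 0.063 at 0.05, 0.54, 5.41 and 54.1 mg/kg. C4b-binding protein inactivates complement C4b and, in humans, binds protein S in plasma through this chain. The alpha chain, C4bpa, was at -0.033 ± 0.044 at 541 mg/kg, and Cfi, the protease factor I for which C4b-binding protein is a cofactor, was at -0.030 ± 0.042.

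Tests across all 6 groups did not call any of the 43 either. In limma's F-test 0 of 43 passed (0.0999% of all probe sets), and 2, C4bpb and Crp, had an unadjusted p under 0.05 (5.99% of all probe sets); the smallest adjusted p was 0.349, of C4bpb. A linear dose trend, in which vehicle scored 0 and each dose step 1 more up to 5 for 541 mg/kg, called 0 of 43 (0.715% of all probe sets). The trend had an unadjusted p under 0.05 for 5 of 43 (11.6%), against 12% of all probe sets, with Crp and Pros1 positive and Fga, Serpind1 and Masp1 negative; the smallest adjusted p was 0.286, of Serpind1.

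The 54.1 and 541 mg/kg groups were also set against the 3 lower doses, which leaves vehicle out. This called 0 of 43 (0.287% of all probe sets), and 5 of 43 (11.6%) had an unadjusted p under 0.05, against 8.61% of all probe sets. Crp and Pros1 were higher, and C4bpb, Serpind1 and Serpina1 were lower. Pros1 was at 0.089 ± 0.031 (limma adjusted p = 0.327) and Serpind1 at -0.078 ± 0.032 (adjusted p = 0.468).

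Genes that regulate, process or work beside these proteins were taken from 4 lists. Of 22 measured genes of acute phase signalling, 24 other plasma proteins of liver, 27 other complement and coagulation genes and 7 genes for processing and secretion of clotting factors, none passed against vehicle at any dose. The dose trend called 1 of the 22, downward, and 1 of the 24, upward, and none of the 27 or the 7 (0.715% of all probe sets). An unadjusted trend p under 0.05 was found for 7 of the 22 (31.8%), all lower with dose, 5 of the 24 (20.8%; 4 lower), 4 of the 27 (14.8%; 2 lower) and 1 of the 7 (14.3%; lower), against 12% of all probe sets. Both called genes are named after their values were seen.

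Il6st, which encodes gp130, the signalling subunit shared by receptors of the interleukin-6 family, fell along the dose order. Its mean was 10.43 ± 0.15 in vehicle (SD, n = 6 in each group), 10.40 ± 0.086 at 0.05, 10.40 ± 0.19 at 0.54, 10.29 ± 0.18 at 5.41, 10.28 ± 0.080 at 54.1 and 10.11 ± 0.17 at 541 mg/kg. The slope was -0.060 ± 0.014 per dose step (limma adjusted p = 0.0378). Neighbouring doses differed by no more than about the spread between samples.

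Il6st at 541 mg/kg had values of 9.80, 10.12 and 10.29, against 10.31, 10.37 and 10.69 in vehicle, with no overlap (0.744% of all probe sets). The difference was -0.33 ± 0.085 and did not pass by itself (adjusted p = 0.119). The other 3 probe sets of Il6st were at -0.29, -0.36 and -0.45 at 541 mg/kg, with slopes of -0.057, -0.064 and -0.079 that did not pass (adjusted p = 0.226, 0.173 and 0.152).

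The trend call of Il6st was lost in 9 of 36 fits that left out 1 sample, where the slope stayed between -0.065 and -0.051 over all 36 and the adjusted p reached 0.0906. The 9 were those without vehicle replicates 1 or 3, 0.05 mg/kg replicates 4 or 6, 54.1 mg/kg replicates 1 or 4, or 541 mg/kg replicates 1, 2 or 4. Markers of sinusoidal endothelium were lower than in vehicle at 541 mg/kg in 9 of 9 measured genes (median difference -0.13) and at 54.1 mg/kg in 3 of 9 (median 0.024), none past the test. Along the dose order 8 of 9 had a negative slope, none called; their mean log2 value ran from 7.86 to 8.07 at 541 mg/kg, against 7.94 to 8.32 in vehicle. That of 11 hepatocyte markers ran from 12.52 to 12.74 at 541 mg/kg, against 12.62 to 12.91 in vehicle. Of these 11, 9 were lower than in vehicle at 541 mg/kg and 8 at 54.1 mg/kg, and 9 had a negative slope. Kupffer cell and macrophage markers had a negative slope in 9 of 9, but only 4 of 9 were lower at 541 mg/kg. None of these 2 lists was called. The part of these cell types in the Il6st trend was not tested, and in whole liver fewer cells of a type and less RNA per cell cannot be told apart.

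Serpina10, which encodes the protein Z-dependent inhibitor of factor Xa, rose along the dose order. Its mean was 11.64 ± 0.088 in vehicle (SD, n = 6 in each group), 11.67 ± 0.070 at 0.05, 11.64 ± 0.065 at 0.54, 11.75 ± 0.037 at 5.41, 11.80 ± 0.031 at 54.1 and 11.78 ± 0.064 at 541 mg/kg. The slope was 0.034 ± 0.0076 per dose step (limma adjusted p = 0.0217), and it passed in 36 of 36 fits that left out 1 sample. The 3 groups from 5.41 mg/kg upward lay close together.

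The difference of Serpina10 was 0.14 ± 0.045 at 541 mg/kg (adjusted p = 0.223) and 0.17 ± 0.045 at 54.1 mg/kg (adjusted p = 0.156), so that neither passed by itself. The groups overlapped at both doses through 1 vehicle sample, at 11.79. The gene has 1 probe set.

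**Figure D3:**
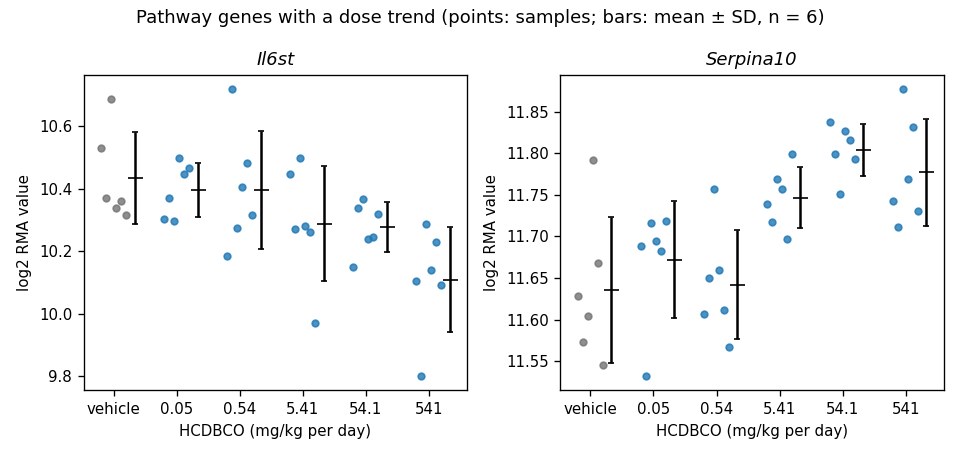
Log2 RMA values of Il6st (left) and Serpina10 (right) by daily dose from vehicle (grey) to 541 mg/kg (blue); points are single samples, bars the mean ± SD of 6. Il6st means run from 10.43 in vehicle down to 10.11 at 541 mg/kg, and Serpina10 means lie between 11.75 and 11.80 at the 3 highest doses, above the 11.64 of vehicle.

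Other regulators, plasma proteins and processing genes did not pass, and they too are named after their values were seen. Cebpb, which encodes C/EBP-beta, was at -0.29 ± 0.19 at 541 mg/kg (adjusted p = 0.686) and -0.45 ± 0.19 at 54.1 mg/kg (adjusted p = 0.458). Cebpd was at -0.19 and -0.25 at these doses, and its other probe sets were at -0.17 and 0.14 at 541 mg/kg. Stat3 was at 0.096 ± 0.10 and its target Socs3, a feedback inhibitor, at 0.10 ± 0.14 at 541 mg/kg (adjusted p = 0.837 and 0.886). Serpina3n, a protease inhibitor that is an acute phase protein in rodents, was at -0.24 ± 0.094 at 541 mg/kg and -0.33 ± 0.094 at 54.1 mg/kg (adjusted p = 0.377 and 0.201). Il6r was at -0.14 ± 0.15 and Il1r1 at 0.14 ± 0.10 at 541 mg/kg. At that dose Hnf4a was at -0.018, Apcs at -0.045, Ahsg at -0.037 and Ttr at 0.0061. Ggcx and Vkorc1 were at -0.028 and -0.052.

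The spread between samples of 1 dose group differed widely among the 43. The within-group SD was 0.642 for Lcn2, 0.491 for A2m and 0.433 for C6, at percentiles 99.7, 99.2 and 98.8 of all probe sets. For Hp it was 0.0254 and for Alb 0.0103, the smallest of all probe sets. The median was 0.0704 over the 43 and 0.139 over all probe sets, and 35 of 43 lay below the latter value.

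Signal level goes with this spread. For the 15 with a mean log2 value of at least 13 the median SD was 0.0421, and it was 0.0513 for all 102 probe sets at that level. Over the 36 samples 31 of 43 spanned less than 0.5 on the log2 scale, and 4 spanned more than 1: Lcn2 (3.17), A2m (2.49), C6 (1.82) and Orm1 (1.05). The narrow intervals above rest on these small spreads and on a variance that limma shares over all probe sets. For the steadiest transcripts the shared part widens the interval. Alb, with an SD of 0.0103, had a standard error of 0.031 at 541 mg/kg. Of the 43 transcripts, 28 were among the brightest 1% of probe sets. As for Alb, whether changes in such bright signals could be seen in full near the top of the scale was not tested.

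**Figure D4:**
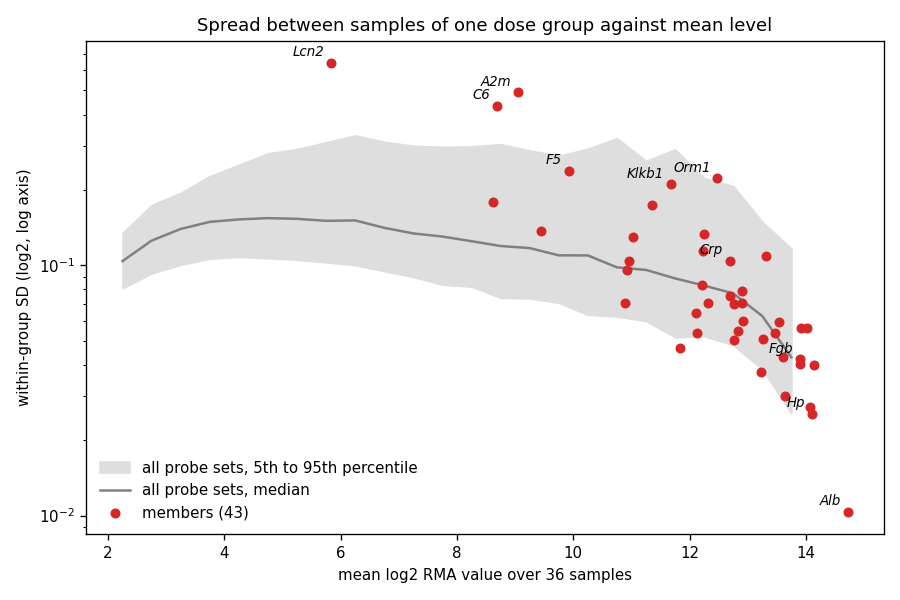
Within-group SD (log2 units, log axis) against the mean log2 value over 36 samples for the 43 transcripts (red points), over the median (line) and the 5th to 95th percentile (band) of all probe sets in bins of 0.5. Lcn2, A2m and C6 lie above the band, and Alb lies at the lower right with an SD of 0.0103.

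Transcripts can vary together between samples whatever the dose. With each group's mean removed, Fga and Fgb correlated over the 36 samples at Pearson's r = 0.59 (permutation p = 0.00039, adjusted over 7 pairs p = 0.00137) and Spearman's rho = 0.57 (adjusted permutation p = 0.00284). Fgb and Fgg correlated at r = 0.69 (permutation p = 4e-05, adjusted p = 0.00028) and rho = 0.71 (adjusted p = 0.00021). Without the 2 samples farthest from the median r was 0.56 and 0.62, with each array centred on its median 0.70 and 0.82, and r was above 0 in all 6 groups, although as low as 0.094 in one for Fgb and Fgg.

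The other 5 pairs did not pass. A2m and Lcn2 gave r = -0.10 (rho = -0.073), Hp and Orm1 r = 0.37 (rho = 0.37), Lcn2 and Orm1 r = 0.22 (rho = 0.27), A2m and Alb r = 0.022 (rho = 0.049) and Mbl1 and Mbl2 r = 0.15 (rho = 0.076). Their adjusted permutation p-values for r ran from 0.134 to 0.895 and for rho from 0.0975 to 0.786. For A2m and Lcn2, the pair with the widest spread, r within single groups ran from -0.91 to 0.43.

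Over all 903 pairs the median r was 0.13, and 63 lay above 0.5 and 4 below -0.5. The closest pair was Serpinf2 and Plg, at r = 0.94 and rho = 0.93, with values from 0.92 to 0.99 within the 6 groups. C3 correlated with Plg at r = 0.90 and with Serpinf2 at r = 0.86, though in single groups these were as low as 0.31 and -0.010. These pairs were chosen after their values were seen and are given as a description, as are Fga and Fgg, at r = 0.67.

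All values of a sample come from 1 array and 1 normalisation. The 3′ minus 5′ signal of the Gapdh control probe sets, a measure of RNA integrity, correlated with the same deviations at r = 0.45 for Serpinf2, 0.43 for Plg and 0.48 for C3, and at -0.36, -0.39 and -0.38 for Fga, Fgb and Fgg. That of the beta-actin controls gave -0.11, -0.056 and 0.0093 for the first 3 and -0.30, -0.28 and -0.20 for the fibrinogen chains. The Gapdh measure averaged -0.031 ± 0.067 at 541 mg/kg and -0.054 ± 0.043 in vehicle (SD). The beta-actin measure averaged 1.18 ± 0.087 and 1.13 ± 0.076. The part of RNA integrity in these correlations, and in the lower fibrinogen means at 541 mg/kg, was not tested.

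**Figure D5:**
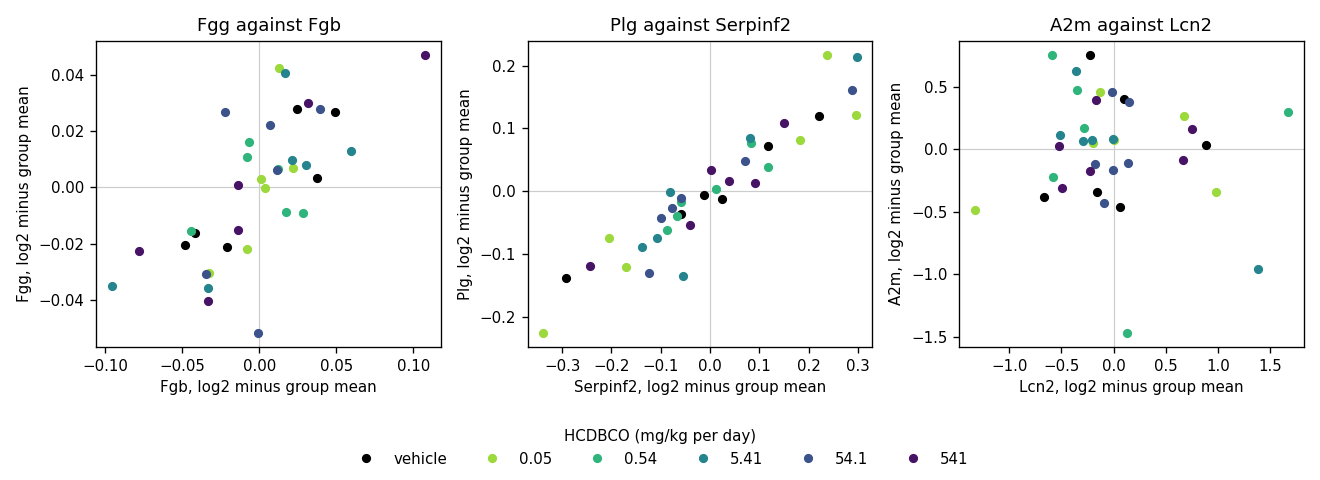
Deviations from the group mean (log2 units) of 36 samples for Fgg against Fgb, Plg against Serpinf2 and A2m against Lcn2, coloured by dose from vehicle (black) to 541 mg/kg. Points follow a rising line for the fibrinogen pair (r = 0.69) and closely for Plg and Serpinf2 (r = 0.94), and are scattered for A2m and Lcn2 (r = -0.10).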

How the data were processed

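Liver RNA was hybridised to 36 one-colour Affymetrix 3′ arrays; per the labels' protocols, RNA had an integrity number of at least 7. The values deposited by the authors are log2 values normalised and summarised per probe set with RMA and the affy package, per the submitters' processing notes, which give no versions. They ran from 1.94 to 14.7; they were taken as log2 because RMA reports on that scale, and the log base was not checked against raw intensities. Groups came from the sample titles. Gene names came from the array annotation supplied with the platform, updated through Entrez IDs to RefSeq (GRCr8).

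After 57 control probe sets were left out, 31042 were fitted with limma 3.58.1 (R 4.3.3; lmFit, eBayes): 6 group means, no covariate, two-sided tests, Benjamini-Hochberg adjustment over all probe sets, FDR 5%. The design text names another R package for the comparison with vehicle, which was not used here. Correlations used 100000 permutations (scipy 1.17.1). No filter on dim signals was applied; with one at the median of the means, 43 of 43 transcripts stayed. Precision is limited by the number of arrays.

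The 43 transcripts, the lists and the tests were chosen with earlier results of these data known. For transcripts chosen by rule, the lowest, median and highest values are given in vehicle and at 541 or 54.1 mg/kg. They are the 6 with the largest differences at 541 mg/kg, the 6 at 54.1 mg/kg and the 4 with the smallest F-test p-values. A2m, Orm1, Hp, Lcn2, Fgb, Crp and Alb are given whatever their values. Alternatives were array centring, a dim filter, array weights, another variance prior, a replicate block, a 2-group fit and leaving out single samples; leaving out each of the 36 for the trends of Il6st and Serpina10 was added after the data had been seen. The fit was tested on simulated data.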

Additional observations from a re-analysis of the deposited data

Results flagged for a closer look

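Within the 258 groups of 6 values (43 transcripts in 6 dose groups), 19 held a sample far from the other 5; chance gives such a flag in about 1 of 20 groups, or 12.9 here. They came from 13 samples. The largest gaps in log2 units were in Lcn2, at 7.71 in 0.54 mg/kg replicate 4 (others 5.44 to 6.16) and at 7.17 in 5.41 mg/kg replicate 1 (others 5.27 to 5.79). That 5.41 mg/kg sample was also the low one for A2m, at 8.35 (others 9.37 to 9.94). Replicate 6 of the same dose was low for Itih1 (12.59), Itih3 (13.77) and Cfi (12.67), and replicate 4 was high for Klkb1 (12.16). Replicate 2 was low for Alb (14.71) and high for Serpina1 (14.23).

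Of the 541 mg/kg samples replicate 5 was low for C4bpb (11.92) and Hpx (13.51), and replicate 1 was high for Itih1 (12.998). Of the 54.1 mg/kg samples replicate 1 was low for Fga (13.83) and Cp (13.19). At 0.54 mg/kg Fga was low in replicate 6 (13.80) and Masp1 high in replicate 3 (9.73). In vehicle Lbp was high in replicate 2 (9.11), Alb high in replicate 4 (14.73) and Itih3 low in replicate 6 (13.84).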

How the results depend on the processing

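The number of the 43 transcripts past the FDR was 0 in every alternative fit that was run, the replicate block among them (0 with the replicate block at 541 and at 54.1 mg/kg). The 2-group fit covered only the 5 doses against vehicle. Fits without single samples covered only 541 mg/kg, 54.1 mg/kg and the trend, and the other alternatives covered all 7 comparisons. Samples with the same replicate number did not deviate together (median correlation 0.0125, from -0.26 to 0.23), so the numbers were not taken as pairs. The smallest adjusted p over these fits was 0.102, of Crp in the comparison of high with lower doses with the dim filter, where the replicate block gave 0.175. The median difference was -0.0247 at 0.54 mg/kg with arrays centred, and ran from -0.0294 to -0.0048 at 541 mg/kg when single samples were left out. Some differences changed sign between fits. As none of the 43 transcripts passed, this could only happen to differences that had not passed. The array of 54.1 mg/kg replicate 5 had an upper quartile of signals of 6.94, against 7.03 to 7.13 in the others. It is called outlying here and was kept in the main fit. At 54.1 mg/kg A2m was at 0.068 with array weights and 0.018 without the outlying array (54.1 mg/kg replicate 5), and from -0.16 to 0.082 without single samples. Alb was at -0.0093 with arrays centred and -0.0003051 without that array (-0.0003051 to 0.0087 without single samples), and Serpind1 at -0.0115 with arrays centred (-0.0170 to 0.0206). Klkb1 ran from -0.084 to 0.067 and Lcn2 from -0.28 to 0.032. At 541 mg/kg Alb was at -0.0047 with arrays centred, C6 ran from -0.044 to 0.11 and Lcn2 from -0.28 to 0.051. Without the 2 farthest samples A2m correlated with Alb at r = -0.017 and with Lcn2 at 0.098. The causes were not tested. The trend calls of Il6st and Serpina10 held in 6 of 6 other alternatives (adjusted p 0.0206 to 0.0447 and 0.00582 to 0.0413).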
